A study of Solanum lycopersicum with 4 samples.

Results

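JOINTLESS (identifier Solyc11g010570.1) and STM3 (Solyc01g092950.2) are a pair of tomato MADS-box transcription factor genes, 2 of the 34722 genes in the deposited table. They were picked by identifier, matched on its first 14 characters, because their level in vegetative meristems was already known to be high. That vegetative level is therefore a description here, with no test, and nothing is supported with it. Transcript levels come from RNA sequencing of shoot apical meristems, the domes of dividing cells at the shoot tip that make leaves and later flowers, dissected from acetone-fixed wild-type tomato (Solanum lycopersicum) seedlings. All plants were wild type, grown in a greenhouse for 2 to 12 days, and no agent was applied to either group. Meristems that had made 6 leaves and were still vegetative gave 2 libraries, replicates C and D, and transitional meristems, on their way to flowering, gave another 2, replicates A and B. These letters are those of the sample titles. In the deposited table vegetative C and D are headed WT_A and WT_B, and transitional A and B are headed WT_TM1 and WT_TM2. The labels give neither the cultivar, nor how many apices went into a library, nor whether replicates came from separate plants. The spread between these samples may therefore be technical. The limma p-values and intervals rest on a moderated spread, which combines a gene's own replicate spread with that of the other tested genes.

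MADS-box proteins bind DNA as dimers and larger complexes, and which partners are present decides which genes they act on. JOINTLESS belongs to the clade of Arabidopsis Short Vegetative Phase (SVP). In tomato it is needed for the abscission zone, the joint in the flower stalk, and for the inflorescence to keep making flowers instead of returning to leaves. STM3 belongs to the clade of SOC1, a gene that integrates flowering signals, and is the sister gene of tomato TM3; in Arabidopsis, SVP delays flowering and SOC1 promotes it. The deposited table holds identifiers without names. The RefSeq gene table (assembly SLM_r2.1) lists J, with the synonym JOINTLESS, on chromosome 11 and no STM3, and 0 of the 34722 identifiers match it, so the pairing of these names with identifiers follows tomato nomenclature and was not checked against a table.

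Libraries held 16141074 (vegetative C), 23043526 (D), 21977345 (transitional A) and 22094423 (B) reads in genes. Values are normalised counts, the reads of a gene divided by 1 size factor per library. Of 3 meristem marker identifiers, entered as WUSCHEL, CLAVATA3 and the KNOX gene TKN2, all were read in every library, and their summed level, mostly that of TKN2, lay between 8434 and 8817 normalised counts in the vegetative and between 6898 and 7745 in the transitional libraries. Of the 3, 1 was called lower in transitional libraries (limma adjusted p under 0.05), where 1.19% of all tested genes were. The CLAVATA3 entry fell by 0.97 on the log2 scale, from 328 and 277 to 138 and 171 normalised counts. The WUSCHEL entry, not called, stood at 235 and 203 in vegetative and 341 and 270 in transitional libraries. The 11 leaf photosynthesis identifiers, markers of leaf tissue that a dissected apex could carry, summed to 7625 in vegetative C, 9701 in D, 10728 in transitional A and 6378 in B, with 1 of the 11 at 0 in vegetative D. The highest of the 11 alone stood at 3911, 5082, 5538 and 3458 in the same order. Among the lower ones, 1 stood at 975 in transitional A and 152 in B, and another at 993 and 186. In bulk tissue, fewer cells of a type and less RNA per cell cannot be told apart.

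JOINTLESS was among the most heavily read genes at both stages. It stood at 4756 normalised counts in vegetative C, 4083 in D, 5883 in transitional A and 4578 in B, on 3447, 4174, 5804 and 4525 reads. The highest library was transitional A and the lowest vegetative D, and the groups overlapped, since transitional B lay below vegetative C. Ranked by normalised count among all genes, which does not correct for gene length, JOINTLESS was 819th in vegetative C, 1076th in D, 609th in transitional A and 877th in B. Between 2.71% and 4.86% of the genes with a read stood above it in a library. Its level was 13.6 to 19.5 times that of the median gene with a read.

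STM3 stood lower than JOINTLESS in reads but varied less between replicates. It was at 2907 normalised counts in vegetative C, 3023 in D, 3403 in transitional A and 3817 in B, on 2107, 3090, 3358 and 3773 reads. Both transitional libraries lay above both vegetative ones, with transitional B highest and vegetative C lowest. STM3 ranked 1711th in vegetative C, 1641st in D, 1328th in transitional A and 1140th in B, with 5.09% to 7.92% of the genes with a read above it. Its level was 9.04 to 12.7 times that of the median gene with a read. The rule for choosing the genes set no level as a limit, so no values just inside or outside one can be given.

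**Figure D1:**
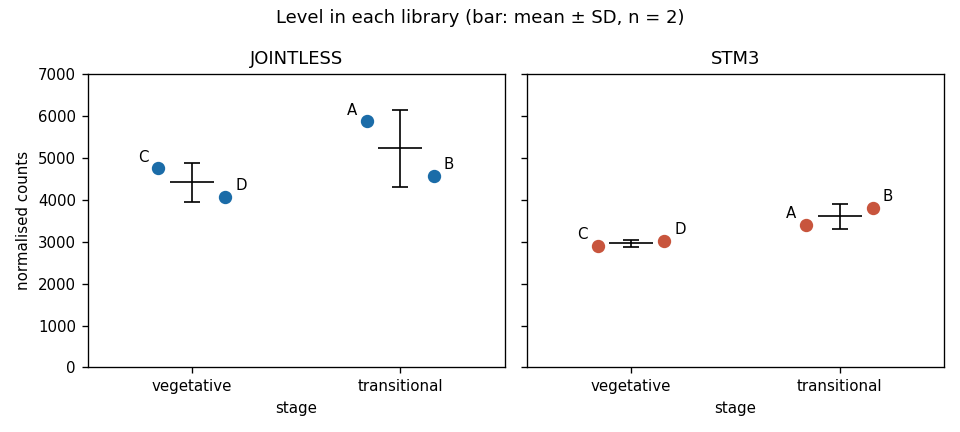
Normalised counts of JOINTLESS and STM3 (y axis, linear from 0) in each library (points, lettered by replicate) at each stage (x axis), with the group mean and SD as bars (n = 2). The JOINTLESS groups overlap, with transitional B at 4578 below vegetative C at 4756, and the STM3 groups do not, with both transitional libraries above 3023.

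**Figure D2:**
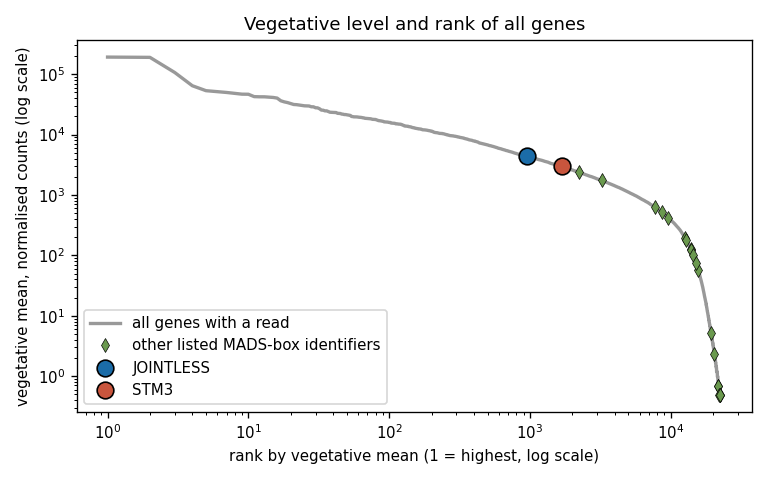
Mean normalised count in vegetative libraries (y axis, log scale) against rank (x axis, log scale, 1 is highest) for all genes with a read in a vegetative library. JOINTLESS is 948th and STM3 1676th by vegetative mean, and both lie above all other listed MADS-box identifiers (green diamonds).

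Neither gene passed the test for a difference between transitional and vegetative meristems. For JOINTLESS the mean was 4419 ± 476 normalised counts in vegetative and 5230 ± 923 in transitional libraries (SD, n = 2 each). The log2 change was 0.24 (SE 0.13, 95% interval -0.08 to 0.55; limma adjusted p = 0.419), a 1.18-fold difference with an interval of 0.947 to 1.46-fold. Its own residual SD was 0.21 on the log2 scale, above this moderated SE. With 2 libraries per group an unmoderated SE would equal that SD, so the interval is narrower than these replicates alone would give. The transitional library was the higher one in 3 of the 4 pairings of a transitional with a vegetative library. Each library moved the size of this difference. Without transitional A the log2 change was 0.06 (limma adjusted p = 0.785) and without B it was 0.42 (0.0662). Without vegetative C it was 0.35 (0.764) and without D it was 0.13 (0.886).

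For STM3 the mean was 2965 ± 81.7 normalised counts in vegetative and 3610 ± 293 in transitional libraries (SD, n = 2 each). The log2 change was 0.28 (SE 0.08, 95% interval 0.08 to 0.48), a 1.22-fold difference with an interval of 1.06 to 1.40-fold. Its unadjusted p was 0.0123 and its limma adjusted p, over the 19607 genes tested, was 0.141. The transitional library was higher in 4 of 4 pairings. Without transitional A the log2 change was 0.36 and without B it was 0.20. Without vegetative C it was 0.25 and without D it was 0.31. Each of these fits leaves 1 library in a group.

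Neither gene was among the called ones. Of the genes tested, 3.89% were called in either direction, 2.70% higher and 1.19% lower, and both transitional values lay above both vegetative values in 25.0%, as they did for STM3. Without vegetative C, or without D, limma called 0 genes, with 1577 and 1867 at an unadjusted p under 0.05. Among the 5506 abundant genes, those averaging 1000 or more normalised counts and the class of both members, 3.41% were called and 19.5% had an unadjusted p under 0.05. In that class the median absolute log2 change was 0.10, and 15.7% of genes had a larger absolute change than JOINTLESS and 11.1% a larger one than STM3. The vegetative values that chose both genes enter these changes. The stated reason for the choice was the vegetative level, but earlier results of these data were known when it was made. The transitional values therefore cannot be called independent of the choice. The moderated intervals leave room for a rise of up to 1.46-fold for JOINTLESS and 1.40-fold for STM3. A p above the threshold therefore does not show that the levels were equal.

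**Figure D3:**
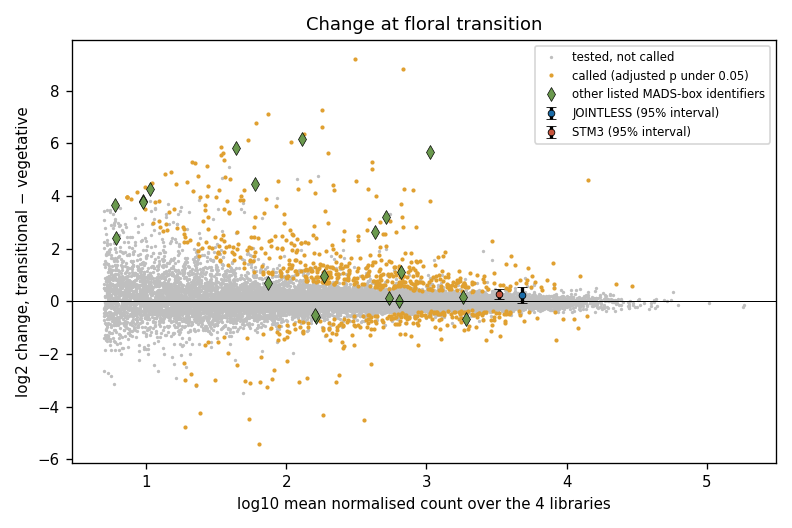
Log2 change, transitional minus vegetative (y axis), against the log10 mean normalised count (x axis) for all 19607 tested genes, with called genes in orange and other listed MADS-box identifiers as green diamonds. JOINTLESS at 0.24 and STM3 at 0.28 lie at the high-count end, with 95% intervals as bars, while called MADS-box identifiers reach 6.19.

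The replicates of a stage differed more for JOINTLESS than for STM3. JOINTLESS was 1.16 times higher in vegetative C than in D (95% counting interval 1.11 to 1.22) and 1.28 times higher in transitional A than in B (1.24 to 1.34). Both gaps exceeded counting error. On the log2 scale they were 0.22 and 0.36, against median absolute gaps of 0.06 and 0.12 over the 5506 abundant genes. Gaps at least as wide were found in 3.23% of those genes between C and D and in 6.50% between A and B.

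STM3 went the other way between the same libraries. Its level in vegetative C was 0.962 times that in D, with a counting interval of 0.910 to 1.02 that includes no difference, and its level in transitional A was 0.892 times that in B (0.851 to 0.934). Gaps at least as wide were found in 53.4% and 35.3% of the abundant genes. The leaf photosynthesis identifiers were higher in transitional A than in B in 11 of 11 cases, in the same direction as JOINTLESS. Over the 10 of them that were tested, the median log2 difference was 1.14. In the vegetative pair 2 of 11 were higher in C, and the median log2 difference of the 10 tested, C minus D, was -0.26, opposite in direction to JOINTLESS. The FRUITFULL clade identifiers were higher in A than in B in 4 of 4 cases and in C than in D in 3 of 4, by median log2 differences of 0.63 and 0.82, in the direction of JOINTLESS in both pairs. The APETALA1 clade identifier was also higher in A and in C, by 0.76 and 3.69. Of the 27 listed MADS-box identifiers found besides JOINTLESS and STM3, 14 were higher in A than in B and 15 in C than in D. Another 4 had no read. Median log2 differences, A minus B and C minus D, were 0.08 and 0.80 for the 6 tested of the 7 SEPALLATA and AGL6 clade identifiers. The vegetative one lies near the floor, with sums of 13.8 normalised counts in C and 4.89 in D. The same medians were -0.13 and 0.19 for the other SVP clade identifiers and -0.20 and 0.08 for the 3 tested of the 4 other SOC1 clade identifiers found. The part of any of these identifiers in the levels of either gene was not tested.

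The ratio of JOINTLESS to STM3 within a library does not depend on the size factor. In normalised counts, not corrected for gene length, it was 1.64 in vegetative C, 1.35 in D, 1.73 in transitional A and 1.20 in B. The ratio was above 1 in all 4 libraries, and the vegetative values lay between the transitional ones. The log2 ratio was 0.57 ± 0.20 in vegetative and 0.53 ± 0.37 in transitional libraries (SD, n = 2 each), a difference of -0.05 (exact two-sided permutation test, p = 1, where the smallest p that 2 against 2 allows is 0.333). Leaving out 1 library gave differences from -0.31 to 0.22. A permutation test of this size cannot pass the threshold for a shift of any size.

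Other MADS-box genes were read from a list of 30 identifiers, JOINTLESS and STM3 included, recalled from tomato nomenclature with results of these data known. Neither the table nor the reference pairs them with names, so those found are described by clade and not one by one by name. Of the 30, 29 were found and 4 had no read in any library. JOINTLESS had the highest and STM3 the next highest normalised count of the listed identifiers in every one of the 4 libraries. The most heavily read of the others stood at 2522 normalised counts in vegetative C, 2218 in D, 2588 in transitional A and 1912 in B. That gene was an SVP clade identifier in both vegetative libraries, the APETALA1 clade identifier in transitional A and a SOC1 clade identifier in B. STM3 was 1.15 to 2.00 times above it.

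Around JOINTLESS and STM3, many listed MADS-box identifiers rose. Of the 20 others that were tested, 10 rose, by log2 changes of 1.10 to 6.19, 1 fell and 9 were not called. Over all tested genes 2.70% were called higher and 1.19% lower. The median log2 change of the 20 was 2.53, against 0.01 over all tested genes. Their list holds the floral identity clades whose rise at the transition was known when it was written. Of the 27 others found, 13 stood at 0 in at least 1 vegetative library, and 4 of the 13 had no read in any library. In the SEPALLATA and AGL6 clades 5 of 7 stood at 0 in at least 1 vegetative library. Log2 changes that start from 0 depend on the pseudocount. Those that rose were 4 of 4 FRUITFULL clade identifiers (regulators of meristem fate and fruit ripening), the 1 APETALA1 clade identifier, 4 of 6 tested SEPALLATA and AGL6 clade identifiers (partners of many floral MADS-box proteins) and 1 of 3 tested B and C class identifiers (petal, stamen and carpel identity). Vegetative C stood above D in 2 of these floral clades: the APETALA1 clade identifier was at 138 normalised counts in C and 9.78 in D, and the FRUITFULL clade summed to 819 and 471. The SEPALLATA and AGL6 clades summed to 13.8 and 4.89. These last sums are a few reads near the floor, since 1 read counts as 1.38 in C and 0.978 in D. Without transitional A 7 rose and 1 fell, without B 9 rose and 3 fell, and without vegetative C or without D 0 were called. When only identifiers reaching 1 CPM in 2 libraries were kept, 15 were tested, 7 rose and the median was 0.97.

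JOINTLESS and STM3 made up a smaller share of the reads of the listed MADS-box identifiers in transitional libraries. Together they took 52.3% of the summed normalised counts in vegetative C, 53.8% in D, 45.1% in transitional A and 46.9% in B. The groups did not overlap, and the share was not tested because its members were chosen on these data. The other listed identifiers summed to 6985 in vegetative C, 6111 in D, 11299 in transitional A and 9488 in B. JOINTLESS alone took 32.5% in vegetative C, 30.9% in D, 28.6% in transitional A and 25.6% in B. STM3 alone took 19.8%, 22.9%, 16.5% and 21.3% in the same order, so its share overlapped between the stages. As sums of reads, these shares weight long transcripts more than short ones.

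**Figure D4:**
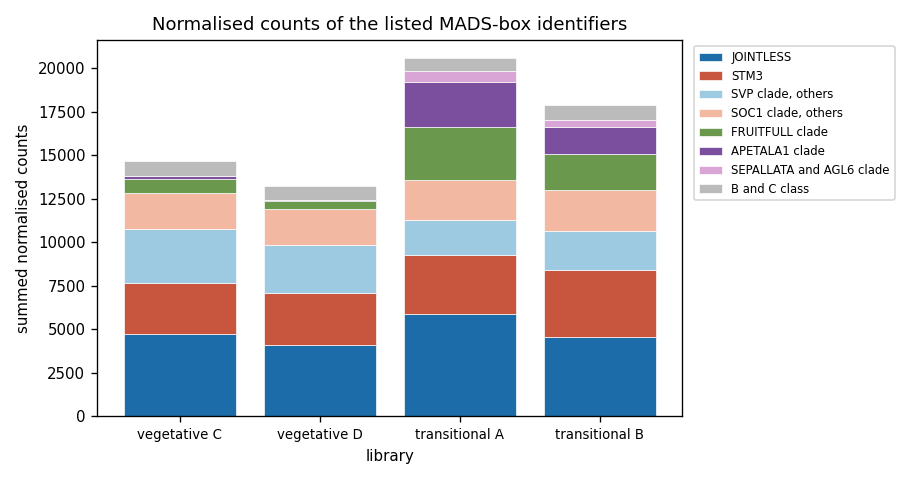
Summed normalised counts (y axis, linear from 0) of the 29 listed MADS-box identifiers found, in each library (x axis), stacked by gene or clade. JOINTLESS and STM3 form the lower blocks with 52.3% and 53.8% of the vegetative and 45.1% and 46.9% of the transitional bars, and the FRUITFULL and APETALA1 clade blocks are taller in the transitional libraries.

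Within the SVP clade, the most heavily read listed relative of JOINTLESS fell, while JOINTLESS itself was not called. That relative stood at 2522 normalised counts in vegetative C, 2218 in D, 1366 in transitional A and 1605 in B. Both transitional values lay below both vegetative ones, as in 24.3% of the tested genes, and it fell by 0.68 on the log2 scale (SE 0.11, limma adjusted p = 0.0185). The fall was called without transitional A or without B (adjusted p = 0.0293 and 0.00862) and not without vegetative C or without D (0.436 and 0.258). It was also not called with no filter on low values (0.119). JOINTLESS was 1.89 times its level in vegetative C, 1.84 times in D, 4.31 times in transitional A and 2.85 times in B. The groups of ratios did not overlap, and the exact two-sided permutation test gave p = 0.333, the smallest that 2 against 2 libraries allow. The other 2 listed SVP clade identifiers were not called, with log2 changes of 0.13 and 0.70 (limma adjusted p = 0.569 and 0.169), at vegetative means of 516 and 56.7 normalised counts.

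In the SOC1 clade none of the 4 tested identifiers, STM3 included, was called, where 3.89% of all tested genes were. The most heavily read after STM3 stood at 1694 normalised counts in vegetative C, 1782 in D, 1959 in transitional A and 1912 in B, a log2 change of 0.16 (SE 0.08, limma adjusted p = 0.343). STM3 was 1.72, 1.70, 1.74 and 2.00 times its level in those libraries, in the same order. Of the other tested identifiers, 1 had a log2 change of -0.59 (limma adjusted p = 0.182), which was -0.85 without transitional B (0.047) and -0.33 without A (0.303). Another had a change of 0.97 (limma adjusted p = 0.0813, called by DESeq2 at 0.0297), which was 0.61 without vegetative D (0.461). The 1 left untested averaged 0.489 normalised counts in vegetative and 5.57 in transitional libraries, and 1 of the 6 listed SOC1 clade identifiers, entered as TM3, was not found in the table. The sources used here do not say whether reads of a close copy were counted under STM3, so its level is uncertain to that extent.

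Regulators of floral transition and inflorescence form were read from 8 identifiers entered as florigen and antiflorigen genes, FALSIFLORA, ANANTHA, COMPOUND INFLORESCENCE, TMF and SSP. Of the 7 tested, 2 rose, by log2 changes of 3.05 and 5.86, none fell and 5 were not called, with a median of 2.90. Over all tested genes 2.70% were called higher and 1.19% lower. In at least 1 vegetative library 4 of the 8 stood at 0, 1 of them with no read in any library. Log2 changes that start from 0 depend on the pseudocount. DESeq2, and limma with a pseudocount of 5, called 2 higher and 1 lower, and limma-voom called 1 higher. Keeping only identifiers that reached 1 CPM in 2 libraries, 6 were tested, 2 rose, 1 fell and the median was 1.55. Without transitional B 2 rose and 2 fell, and without vegetative C or without D 0 were called, with medians of 2.11 and 1.08. JOINTLESS and STM3 were read in the same libraries with no call, and the difference between them and this list was not tested.

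The surroundings of both genes on their chromosomes were read from identifier order, since tomato identifiers number genes along each chromosome. Of the 5 identifiers on either side of JOINTLESS on chromosome 11, 3 had no read and the vegetative means of all 10 ranged from 0 to 4116 normalised counts, with a median of 445 and none above JOINTLESS. Of the 7 tested, 0 were called by limma, with log2 changes from -0.35 to 0.23. Of the 5 on either side of STM3 on chromosome 1, the vegetative means ranged from 0 to 1361, with a median of 233 and none above STM3. Among 9 tested neighbours 1 was called, where 3.89% of all tested genes were, and the log2 changes ran from -0.38 to 3.81, with a median of -0.08. The called neighbour, at 3.81, is a SEPALLATA and AGL6 clade identifier already counted above among the listed MADS-box identifiers that rose. The sources used here do not say how the counting treated overlapping genes or strand.

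The gene most like each in pattern was sought among 14599 genes averaging 100 or more normalised counts, as the smallest Euclidean distance between log2 profiles over the 4 libraries, each centred on its own mean. For JOINTLESS it was Solyc04g078910.2, at 222 normalised counts in vegetative C, 189 in D, 268 in transitional A and 209 in B (distance 0.0301). For STM3 it was Solyc08g066560.2, at 130 in vegetative C, 134 in D, 151 in transitional A and 169 in B (distance 0.0101). Neither of these genes was called (limma adjusted p = 0.585 and 0.414). Within a distance of 0.1 lay 40 genes for JOINTLESS and 177 for STM3. JOINTLESS and STM3 were 0.423 apart, and 45.4% of the genes lay closer to JOINTLESS than STM3 did.

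**Figure D5:**
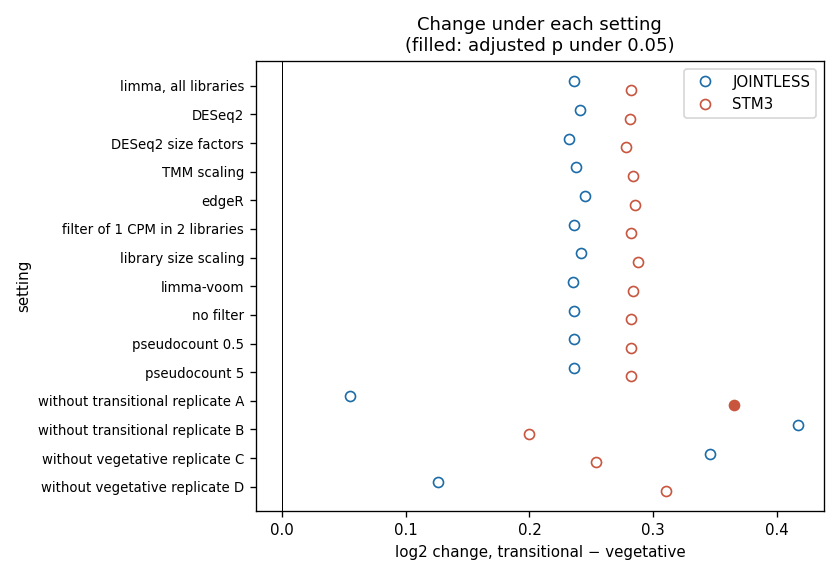
Log2 change, transitional minus vegetative (x axis), of JOINTLESS (blue) and STM3 (red) under each setting (y axis), filled where the adjusted p was under 0.05. With all libraries the settings lie between 0.23 and 0.29, leaving out 1 library spreads JOINTLESS from 0.06 to 0.42 and STM3 from 0.20 to 0.36, and STM3 is filled only without transitional replicate A.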

How the data were processed

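The values the authors deposited are a normalised signal: read counts per gene over a size factor of the library. TopHat2 2.0.10, HTSeq 0.6.1p1 and DESeq2 1.6.3 are named, per the submitters' processing notes, with no role or order, and the genome build and annotation were not given in the sources used here. Whole reads were recovered, since 100% of the values of every library were whole multiples of 1 step (relative tolerance 1e-06).

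Transitional libraries were compared with vegetative ones with limma 3.58.1 (trend) in R 4.3.3 on log2(value + 1), for genes averaging 5 or more normalised counts, with stage as the single term and Benjamini-Hochberg adjustment over all tested genes (threshold 0.05). Residual degrees of freedom were 2 and prior degrees of freedom 5.18, so the other genes weighed more in the moderated spread than a gene's own replicates. On this scale the fold change of low genes is understated.

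Alternatives were 3 scalings, 2 filters, pseudocounts of 0.5 and 5, limma-voom, edgeR 4.0.16 and DESeq2 1.42.0 on those reads, and leaving out each library. Counting intervals (exact, 95%) cover counting error only. Permutation tests used SciPy 1.17.1. The fits were tested on simulated data. The members and lists were chosen with earlier results of these data known. Genes most like each member were named by a fixed rule, the nearest 1 per member. Other MADS-box identifiers found are described by clade because no table pairs them with names. Where a marker, a regulator or the missing SOC1 clade identifier carries a name, it is the one it was entered under. No protein or promoter sequences were used here.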

Additional observations from a re-analysis of the deposited data

How the results depend on the processing

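With all 4 libraries, JOINTLESS kept a log2 change of 0.23 to 0.25 and STM3 one of 0.28 to 0.29 over 10 other settings, none of which called either gene (lowest adjusted p 0.412 and 0.126). Leaving out 1 library gave 0.06 to 0.42 for JOINTLESS and 0.20 to 0.36 for STM3, the latter called without transitional A (0.36, adjusted p 0.0327), where the lone transitional library is assumed to vary like the vegetative ones; the cause was not tested. Genes called higher and lower numbered 529 and 233 with limma and 485 and 207 with edgeR's quasi-likelihood test on the recovered reads, which shared 690 of the 762 calls. With no filter, beyond leaving out genes with no read, 6 were called higher and 1 lower. With no filter 0 of the listed MADS-box identifiers and of the floral regulators were called, 10 and 2 rising with limma's filter in place. The median of the MADS-box identifiers other than JOINTLESS and STM3 was 1.50 with a pseudocount of 5, and that of the regulators 1.52. Leaving out 1 library gave 0 to 776 higher and 0 to 478 lower. The JOINTLESS minus STM3 change was -0.05 to -0.04 with all libraries and -0.31 to 0.22 leaving out 1. No paired analysis was possible because the stages share no replicate letter in the titles. With 2107 reads or more per gene and library and 2 libraries per stage, the precision of both changes is limited by the spread between libraries more than by depth.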
